A study of Mus musculus with 65 samples.

Results

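Of the CTCF peaks mapped in wild-type mouse testes enriched in spermatocytes, 5032 were strong sites without a wild-type recombination hotspot. At these sites no peak of the meiotic axis or of its break-forming partners was listed in any genotype. They were chosen by position and by the authors' CTCF score. A site belonged to the group if it lay on one of the 19 autosomes, had a score of at least 2.89, and shared no base pair with any of 21 peak lists of MEI4, IHO1, HORMAD1 and SYCP3 or with the wild-type DMC1 list. They were 5032 of 8023 strong autosomal CTCF sites (62.7%), of 31785 autosomal CTCF peaks and of 32676 CTCF peaks in all. They are called bare sites here. Of the other strong sites, 2640 overlapped a HORMAD1 peak in at least 1 of 5 genotypes and are called HORMAD1 sites. The remaining 351 had another listed protein or a hotspot but no HORMAD1, and are called the third group. The score and the absence of overlaps therefore define the bare sites and are not findings about them.

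CTCF is a zinc-finger protein that binds a long, well-defined DNA motif and halts loop extrusion by cohesin, so that its sites often mark the bases of chromatin loops. In meiotic prophase the chromatin of each chromosome is arranged in loops along a proteinaceous axis built on cohesin. HORMAD1 is a HORMA-domain protein of the unsynapsed axis, and SYCP3 is a filament-forming axis component. MEI4 and IHO1 are partners that bring the break-forming enzyme SPO11 into action on the axis, and DMC1, a meiotic recombinase, binds the resected DNA at breaks and so maps hotspots. PRDM9, a histone methyltransferase with zinc fingers, determines where mouse hotspots lie.

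The study used chromatin immunoprecipitation and sequencing on whole testes of C57BL/6JCrl mice, and the lists used here came from 6 genotypes. These were the wild type, Prdm9KO (allele Prdm9tm1Ymat), Spo11KO (Spo11tm1Mjn), Mei4KO (Mei4tm1Bdm), Iho1KO (Iho1tm1.2Atot) and Hormad1KO (Hormad1tm1.2Atot). In all groups, male pups from 1.5 days of age were fed WIN 18,466, which blocks retinoic acid, for 7 to 10 days, received 1 injection of retinoic acid, and were killed 8 days later, when leptotene and zygotene spermatocytes made up 80 to 95% of the testis per the labels. Each group had 1 or 2 samples but 1 deposited list, so no difference below has a replicate check. CTCF was taken from the wild type, and HORMAD1 from the wild type, Prdm9KO, Spo11KO, Mei4KO and Iho1KO. Hormad1KO served for MEI4, IHO1 and SYCP3, and for a second DMC1 list that did not choose the sites. Per the series' design text, the signal of each axis or partner protein in its own knockout had been subtracted. Peak lists hold no expression values, so the labelled cell type could not be checked against marker genes. Whether the testes of several pups were pooled is not stated. Whether a given CTCF peak came from the spermatocytes or from other cells of the testis was not tested. The depth behind the lists is unknown. Shares below carry Wilson 95% intervals, and differences between bare and HORMAD1 sites carry Newcombe 95% intervals. A difference is called where its interval excludes 0. The intervals cover counting error only and treat sites as independent.

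The strongest bare sites at promoters are shown first, because they are where sequence can be read beside a CTCF score. The reference promoter windows (RefSeq, GRCm38.p6, the same coordinates as the mm10 build of the peaks) run from 250 bases before a gene's start to 50 after it. Bare sites overlapped 683 such windows, which lay at 524 sites, so intervals over windows count some sites more than once. The windows below lie in the 5 highest-scoring bare sites with a window, with scores from 9.01 down to 8.22. Where a site held several windows, the one nearest the peak centre is shown. Capitals mark matches on either strand to the CTCF core CCANNAGNNGGC, to its relaxed form CCNNNAGNNGGC, or to a shorter stretch, AGNNGGCGC, that was added after the sequences were seen. The full core is a special case of the relaxed form, and the shorter stretch can overlap both.
Gm20517 window, chr17:47611335-47611634, plus strand: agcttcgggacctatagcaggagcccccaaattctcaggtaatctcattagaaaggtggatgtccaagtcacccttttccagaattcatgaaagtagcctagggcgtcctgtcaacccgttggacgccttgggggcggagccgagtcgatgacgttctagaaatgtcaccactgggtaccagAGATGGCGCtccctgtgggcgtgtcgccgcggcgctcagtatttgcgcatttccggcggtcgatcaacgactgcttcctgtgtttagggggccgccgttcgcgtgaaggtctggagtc
Med4 window, chr14:73509799-73510098, plus strand: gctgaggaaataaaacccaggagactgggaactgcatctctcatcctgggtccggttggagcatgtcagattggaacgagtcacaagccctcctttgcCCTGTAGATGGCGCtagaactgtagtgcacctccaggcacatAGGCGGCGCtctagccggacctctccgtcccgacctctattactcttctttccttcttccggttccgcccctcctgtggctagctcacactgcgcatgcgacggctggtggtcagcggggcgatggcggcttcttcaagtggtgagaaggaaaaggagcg
Ddias window, chr7:92874198-92874497, minus strand: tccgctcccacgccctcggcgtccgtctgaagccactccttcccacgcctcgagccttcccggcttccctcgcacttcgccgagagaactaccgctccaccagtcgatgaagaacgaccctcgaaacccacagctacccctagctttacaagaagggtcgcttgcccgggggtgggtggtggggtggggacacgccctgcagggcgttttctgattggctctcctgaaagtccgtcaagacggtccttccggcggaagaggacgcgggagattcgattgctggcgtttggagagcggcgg
Cstdc2 window, chr2:148850885-148851184, minus strand: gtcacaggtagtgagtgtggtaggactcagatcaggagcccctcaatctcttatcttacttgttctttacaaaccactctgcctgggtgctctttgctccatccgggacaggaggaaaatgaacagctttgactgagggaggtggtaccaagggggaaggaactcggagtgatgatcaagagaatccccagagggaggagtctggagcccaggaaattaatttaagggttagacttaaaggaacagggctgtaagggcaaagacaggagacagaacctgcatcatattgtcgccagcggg
Get1 window, chr16:96145150-96145449, plus strand: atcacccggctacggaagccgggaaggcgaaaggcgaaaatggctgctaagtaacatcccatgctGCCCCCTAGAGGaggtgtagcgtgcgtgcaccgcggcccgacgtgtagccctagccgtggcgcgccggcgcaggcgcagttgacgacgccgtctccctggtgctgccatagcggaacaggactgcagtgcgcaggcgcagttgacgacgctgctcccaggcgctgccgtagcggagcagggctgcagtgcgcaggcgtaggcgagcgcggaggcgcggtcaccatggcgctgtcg
None of the 5 windows held the full core. The Gm20517 window held the short stretch once, and the Med4 window held it at 2 places, one of them joined to a relaxed core. The Get1 window held a relaxed core on the other strand, and the centres of this window and of its peak were 23 bp apart. In the Ddias and Cstdc2 windows none of the 3 forms was found, which says only that these letters are not in these bases.

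The full core was more frequent at windows of bare sites than at windows in general. It was present in 73 of 683 windows at bare sites (10.7%, interval 8.59 to 13.2%), in 47 of 364 at HORMAD1 sites (12.9%, 9.85 to 16.7%) and in 776 of all 31396 autosomal windows (2.47%, 2.31 to 2.65%). Windows at weaker CTCF peaks had it in 3.60% and windows at no autosomal CTCF peak in 1.97%. The intervals of bare and HORMAD1 sites overlapped, and both lay above that of all autosomal windows. Windows at the third group had the full core in 7.27% (4.53 to 11.5%). The relaxed form was found in 21.1%, 25.3% and 8.73% of windows at bare sites, at HORMAD1 sites and over all autosomes, and the short stretch in 16.3%, 18.4% and 7.38%. The median GC content of these windows was 56.7%, 54.7% and 53.0%. At bare sites the full core was found in 15.2% of 270 windows whose centre was up to 300 bp from the peak centre, in 8.36% of 287 farther than that but within 1000 bp and in 6.35% of 126 beyond 1000 bp. The share was thus highest in the windows closest to the peak centre.

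The full core itself is shown for the 5 highest-scoring bare sites that hold it in a window, with 9 bases to either side of it and the core in capitals, for comparison with the corresponding HORMAD1 sites.
Noc3l start, chr19:38819278-38819307, minus strand, score 7.57: ggaccagagCCACCAGGGGGCgcacgcacc
Nifk start, chr1:118321737-118321766, plus strand, score 7.44: agtttgtggCCAGTAGGTGGCgctcgagct
Cluap1 start, chr16:3908937-3908966, minus strand, score 7.21: ggacacagaCCAACAGGTGGCgccaagcac
Faf2 start, chr13:54621665-54621694, minus strand, score 6.43: cgaatctcgCCACCAGAGGGCgacgttcgc
Gfm1 start, chr3:67430022-67430051, plus strand, score 6.20: tcctcctgaCCAGGAGAGGGCgcgcgccac
The next 5 are the highest-scoring HORMAD1 sites with the full core in a window, shown to place the same letters at sites where the axis protein was listed.
Gm33330 start, chr16:30253378-30253407, plus strand, score 7.61: tcctgtatgCCAACAGGAGGCacactacaa
Gm41414 start, chr16:5306765-5306794, plus strand, score 7.52: ccattacggCCAGCAGAGGGCggtggcgag
Cpne8 start, chr15:90679586-90679615, minus strand, score 6.37: ggggctctcCCACTAGACGGCgcggtgtct
Gm2109 start, chr9:83691460-83691489, minus strand, score 6.15: gcactgtcaCCACTAGATGGCaatcatgtg
Gm41099 start, chr14:19042165-19042194, minus strand, score 6.13: acccacaggCCAGCAGAGGGCgccctctcc
All 10 cores share the letters that define the search, and the free positions differ from site to site. The genes named in the bare group include Nifk, whose product binds the proliferation marker Ki-67, Cluap1, which is needed for cilia, and Gfm1, a mitochondrial elongation factor. The HORMAD1 peak lists that overlapped the second group were not the same at each site, and Gm33330 had a peak in 7 of the 21 protein lists while Gm41414 had 1. The Gm33330 core lay 1016 bp from its peak centre, while the other cores printed were 21 to 233 bp from theirs.

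Bare sites became rarer as the CTCF score rose, but they never became rare. Over all autosomal CTCF peaks 81.6% had no listed protein and no hotspot, and 13.6% had HORMAD1, against 62.7% and 32.9% of the strong sites. With the peaks ranked by score into 10 equal classes, in the lowest class 94.6% of peaks were without listed protein or hotspot, and in the highest class, with scores from 3.88 to 37.3, 49.2% were. HORMAD1 overlapped 2.36% of the peaks in the lowest class and 46.3% in the highest. In the highest class the 2 kinds of site thus had similar shares. The median width of the peaks also rose along this order, from 908 to 2421 bp, and a wider interval meets another peak more easily. The part of width in these shares was not tested.

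**Figure D1:**
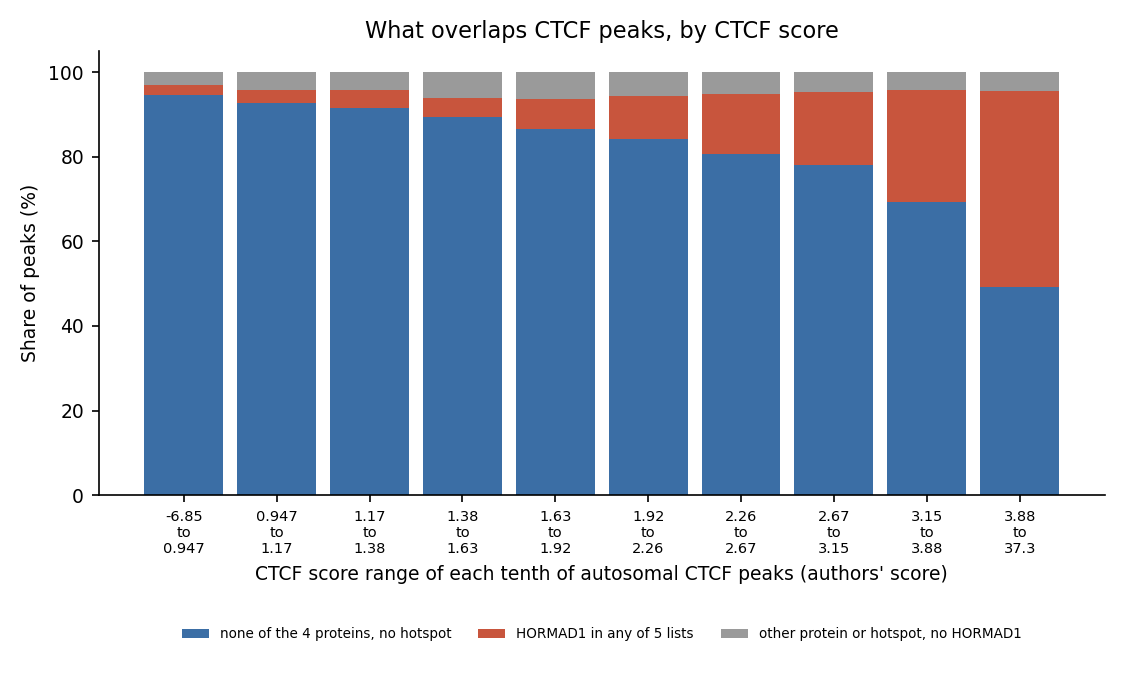
Share (%) of autosomal CTCF peaks in 3 classes, stacked, for 10 equal classes of the authors' CTCF score from lowest (left) to highest (right). Peaks without listed protein or hotspot fell from 94.6% to 49.2% of a class, while peaks with HORMAD1 rose from 2.36% to 46.3%.

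Within the strong sites the same order held. When the 8023 sites were ranked by score into 5 equal classes, bare sites made up 76.3, 72.1, 66.4, 56.5 and 42.3% of the classes from weakest to strongest. HORMAD1 sites outnumbered them in the strongest class, with 52.8% of its sites. Bare sites had a median score of 3.50 (quartiles 3.15 and 4.04, highest 16.7), and HORMAD1 sites a median of 4.02 (3.45 and 4.80, highest 37.3). The score ranges overlapped almost wholly, and 5% of bare sites scored above 5.22. At the threshold, the 3 nearest bare sites inside scored 2.8900, 2.8901 and 2.8902, and the 3 nearest otherwise eligible peaks outside scored 2.8899, 2.8896 and 2.8892.

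Bare peaks were also narrower. Their median width was 2048 bp (quartiles 1586 and 2706), against 2910 bp (2184 and 3938) at HORMAD1 sites. This held at matched score, since the median width of bare sites was between 1997 and 2097 bp in the 5 score classes and that of HORMAD1 sites between 2768 and 3156 bp. In the narrowest of 5 equal width classes 84.7% of strong sites were bare, and in the widest 37.6%. Score and width are descriptions here, because the first chose the sites and the second bears on whether an overlap is found.

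**Figure D2:**
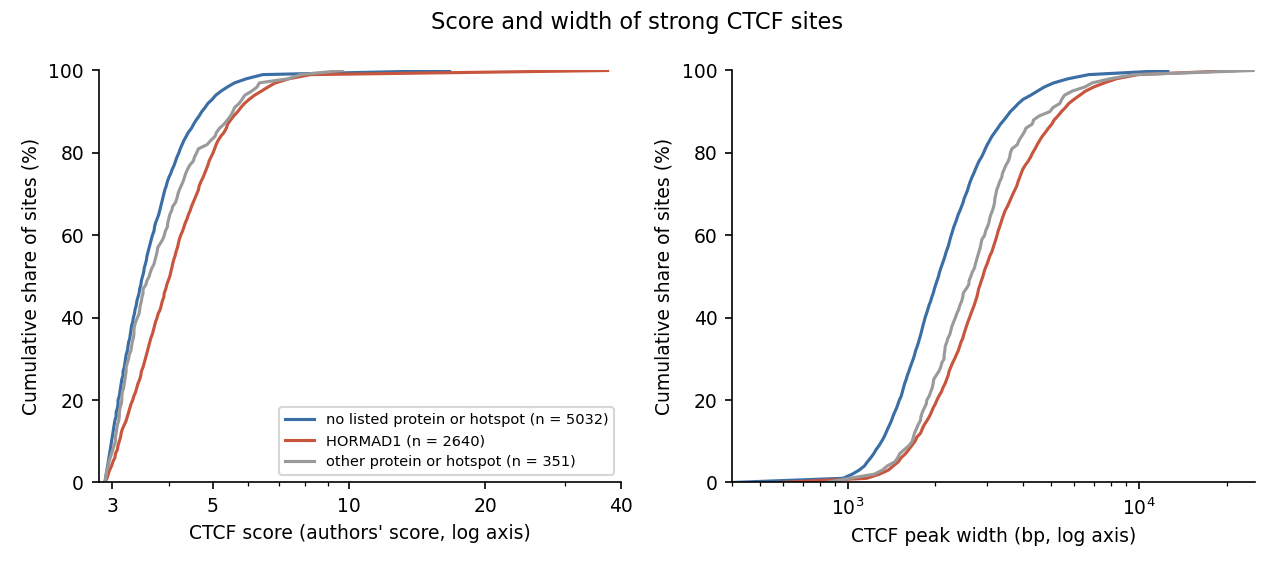
Cumulative share (%) of strong CTCF sites against the authors' CTCF score (left, log axis) and against peak width in bp (right, log axis), for bare sites, HORMAD1 sites and the 351 sites with another protein or hotspot. The bare curve lies left of the HORMAD1 curve in both, with medians of 3.50 against 4.02 and 2048 against 2910 bp.

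The knockout lists removed many sites from the bare group. In the wild type alone, 7056 of the strong sites (87.9%) were free of all 4 proteins and of hotspots, and 2024 of these had a listed protein in a knockout. HORMAD1 overlapped 505 strong sites in the wild type (6.29%), 510 in Prdm9KO (6.36%), 1127 in Spo11KO (14.0%), 1433 in Iho1KO (17.9%) and 2077 in Mei4KO (25.9%). The lists differed in length, with 5275 peaks in Mei4KO, 1715 in the wild type and 1009 in Prdm9KO, and the part of list length in these shares was not tested. Of the 2640 HORMAD1 sites, 1162 had HORMAD1 in exactly 1 list and 176 in all 5. The remaining strong sites with another protein or hotspot differed in kind from both groups: 160 of the 351 had SYCP3, 46 had IHO1 and 127 had a hotspot and no protein.

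Bare sites lay inside genes more often than HORMAD1 sites did. The centre of 2470 of 5032 bare sites (49.1%, interval 47.7 to 50.5%) was inside a protein-coding gene, against 899 of 2640 HORMAD1 sites (34.1%, 32.3 to 35.9%). The difference was 15.0 percentage points (12.7 to 17.3) and was called. For all autosomal CTCF peaks the share was 52.8%, and for the third group it was 49.3% (44.1 to 54.5%). HORMAD1 sites thus had the lowest of these shares. Bare sites were close to the third group by this measure, but not away from gene ends (given below). The bare share inside genes was higher than the HORMAD1 share on 19 of 19 autosomes, by 5.40 to 28.7 points. The widest gap was on chromosome 16 (54.6% against 25.9%).

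The difference was present at each CTCF strength. From the weakest to the strongest of the 5 score classes, 50.7, 52.4, 48.9, 46.2 and 44.8% of bare sites were inside genes, against 39.7, 35.0, 36.9, 33.9 and 30.1% of HORMAD1 sites. Both shares were lower in the strongest class than in the weakest, and bare sites were higher in all 5 classes. With the classes weighted by the number of bare sites the difference was 13.4 points (10.9 to 15.9), and within 5 width classes it was 15.8 points (13.1 to 18.5). CTCF peaks under the threshold, which the rule did not use, gave 56.1% of 20910 peaks without listed protein or hotspot and 43.0% of 1668 with HORMAD1, a difference of 13.1 points (10.6 to 15.5). Not every result extended to these weaker peaks: the difference was -6.16 points (-8.13 to -4.32) at gene ends and -2.34 (-3.88 to -0.968) at promoter windows, and 0.507 (-1.27 to 2.12) for positions over 50 kb from genes.

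**Figure D3:**
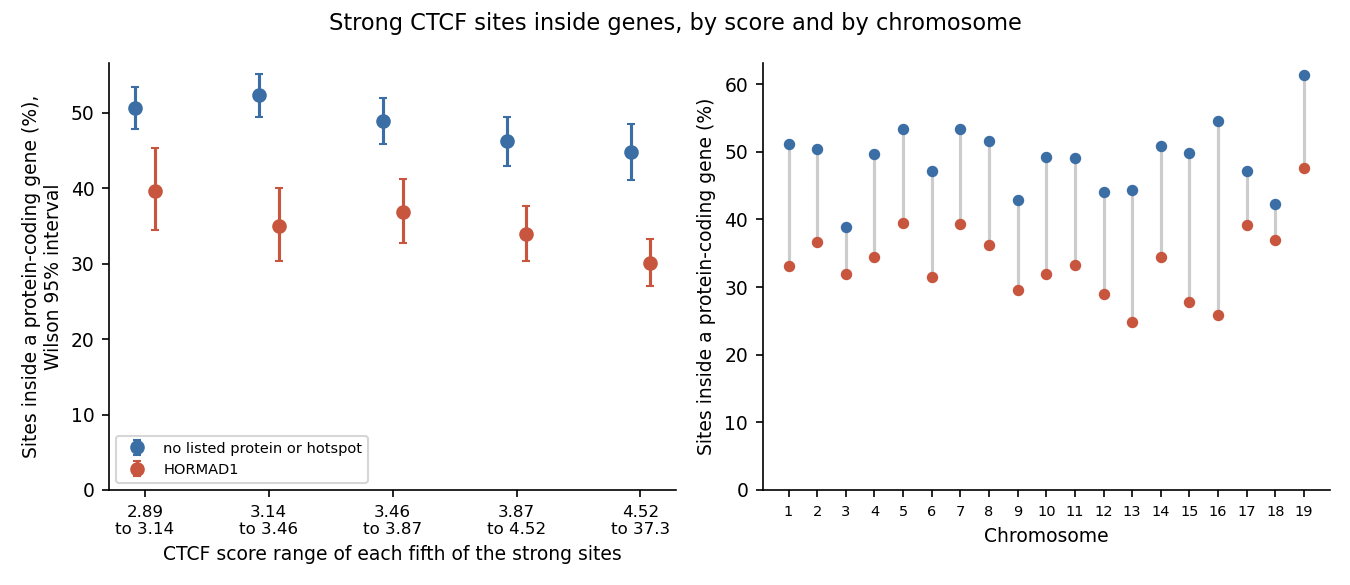
Share (%) of strong CTCF sites whose centre lies inside a protein-coding gene, with Wilson 95% intervals, in 5 score classes (left), and per autosome without intervals (right), for bare sites (blue) and HORMAD1 sites (red). Bare sites are higher in each of the 5 classes and on each of the 19 autosomes.

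Each HORMAD1 list gave the same picture by itself. Strong sites with a HORMAD1 peak lay inside a gene in 28.3% in the wild type (interval 24.6 to 32.4%), 30.0% in Prdm9KO (26.2 to 34.1%), 31.8% in Spo11KO, 34.2% in Mei4KO (32.2 to 36.3%) and 32.0% in Iho1KO. All 5 intervals lay below that of the bare sites. SYCP3, which did not define the HORMAD1 sites, gave between 30.4% (wild type) and 36.4% (Spo11KO) over its 6 lists, and IHO1 gave between 28.1 and 29.9% in the 4 genotypes with HORMAD1. In Hormad1KO IHO1 overlapped only 33 strong sites, 39.4% of them inside genes (24.7 to 56.3%). MEI4 lists met few strong sites, from 2 in Prdm9KO to 89 in Spo11KO, and the shares inside genes varied, with 30.8% in the wild type (18.6 to 46.4%), 43.8% in Spo11KO (34.0 to 54.2%), 51.4% in Hormad1KO (40.0 to 62.8%) and 56.2% in Iho1KO (42.3 to 69.3%). Strong sites with a wild-type DMC1 hotspot were inside genes in 46.6% of 320 cases (41.2 to 52.0%), an interval that overlaps that of the bare sites. The lists share sites with one another, so these values are not independent of each other.

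Relative to HORMAD1 sites, the surplus of bare sites lay in the interior of genes and their deficit in the space between genes. Bare sites inside a gene and over 1 kb from any gene end made up 40.8%, against 26.6% of HORMAD1 sites. The third group had 23.1% there, and all autosomal CTCF peaks had 43.9%. Outside genes, 12.7% of bare and 16.0% of HORMAD1 sites lay up to 10 kb from the nearest gene end. At 10 to 50 kb these shares were 18.7 and 27.6%, and farther than 50 kb they were 12.1 and 14.5%. All autosomal CTCF peaks had 11.4, 16.5 and 13.2% in these positions. Both there and in gene interiors, bare sites were closer to CTCF peaks in general than HORMAD1 sites were. Read the other way, bare sites were 72.4% of the strong sites in gene interiors and between 55.3 and 59.9% in the other 4 positions. The difference in the most remote position was called at -2.40 points (-4.05 to -0.809), with the bare share lower on 15 of 19 autosomes. It was not called with a limit of 100 kb (-0.453 points, -1.70 to 0.735) or against wild-type HORMAD1 alone.

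Close to gene ends the shares of the 2 groups differed by less than their intervals in the main comparison. Within 1 kb of either end of a protein-coding gene lay 788 bare sites (15.7%, 14.7 to 16.7%) and 405 HORMAD1 sites (15.3%, 14.0 to 16.8%), so that they differed by 0.319 points (-1.41 to 2.00) without a call. The outcome depended on the definition. Counting the ends of all annotated genes gave -5.17 points (-7.27 to -3.09), while comparing within width classes gave 5.33 points (3.69 to 6.97) and counting gene starts alone gave 1.803 points (0.541 to 3.01). Promoter windows were overlapped by 10.4% of bare sites and 10.9% of HORMAD1 sites, a difference of -0.534 points (-2.02 to 0.899), which became 2.84 points (1.44 to 4.23) within width classes. The 351 sites with another protein or hotspot stood apart from both, with 50.7% at gene ends (45.5 to 55.9%) and 43.9% at promoter windows.

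**Figure D4:**
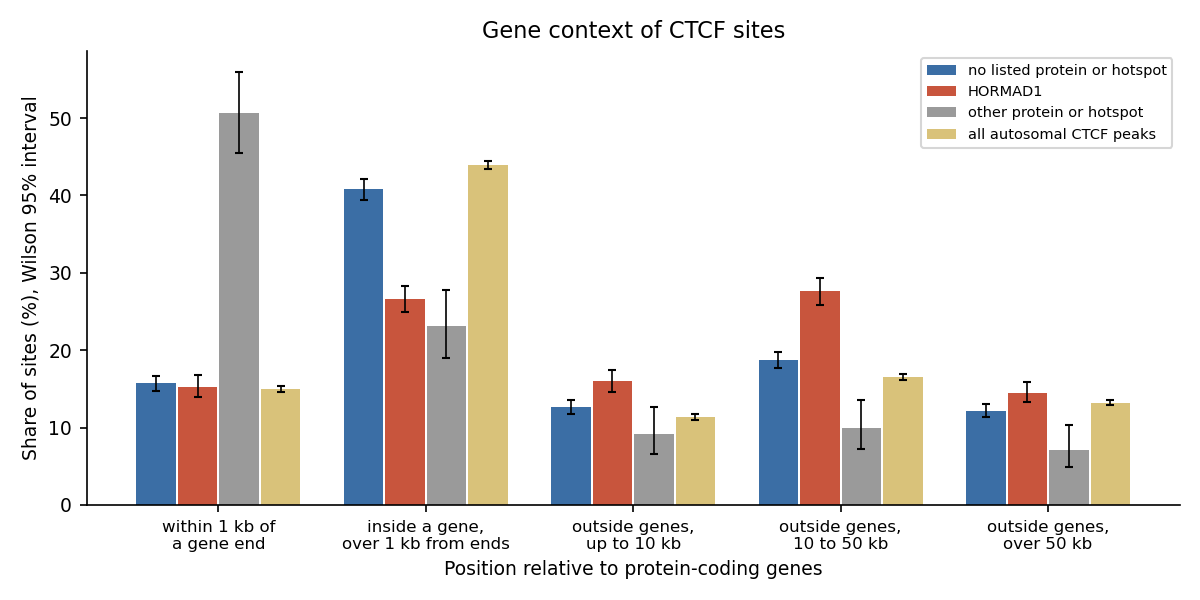
Share (%) of CTCF sites in 5 exclusive positions relative to protein-coding genes, with Wilson 95% intervals, for bare sites, HORMAD1 sites, strong sites with another protein or hotspot, and all autosomal CTCF peaks. Bare sites exceed HORMAD1 sites inside genes (40.8% against 26.6%) and fall below them between genes, while the third group peaks at gene ends (50.7%).

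The genes that held bare sites and those that held HORMAD1 sites had similar median lengths. Sites inside genes lay in genes of median length 86.8 kb (bare, quartiles 34.4 and 208) and 84.0 kb (HORMAD1, 28.9 and 226). When each gene was cut into 3 equal stretches from its start, 30.9, 29.0 and 40.2% of 1934 bare sites fell in the first, middle and last, and 29.9, 30.2 and 39.9% of 705 HORMAD1 sites did. These counts leave out some of the 2470 bare and 899 HORMAD1 sites inside genes. Both groups therefore leaned toward the distal stretch to a like degree. Of 20665 autosomal protein-coding genes 2137 (10.3%) held a bare site and 844 (4.08%) a HORMAD1 site. The 199 genes that held both were 9.31% of the first and 23.6% of the second.

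Some long genes held several bare sites. There were 58 genes with 3 or more, and 42 of these (72.4%) held no HORMAD1 site, a lower share than the 90.7% of all 2137 genes with a bare site. HORMAD1 sites numbered 3 or more in 11 genes. There were 18 genes with 4 or more bare sites, 14 of them without a HORMAD1 site (77.8%), and those named next were chosen from them after their counts were seen. Syn3 (450 kb), a synapsin of synaptic vesicles, held 6 bare sites, no HORMAD1 site and 1 of the third group. Nav2 (651 kb), a neuron navigator, and Rbfox1 (1528 kb), an RNA-binding splicing regulator, each held 5 and no HORMAD1 site. Ank3, Dscam, Kirrel3, Pde10a, Rapgef4 and Cracr2a each held 4 and no HORMAD1 site, while Dlgap1 held 4 beside 3 HORMAD1 sites, and Lsamp and Pde4d each 4 beside 2.

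Strong CTCF sites at the ends of meiotic genes were few in number, as they were at genes in general. Over the 20665 autosomal protein-coding genes, 7.73% had a strong CTCF site within 1 kb of an end. A bare site was there at 921 (4.46%) and a HORMAD1 site at 467 (2.26%). Of 31 genes of break formation and repair 3 had a bare site and none a HORMAD1 site. These were Mnd1 (site score 3.41) and Psmc3ip (4.90), whose products form a complex that helps DMC1 in strand invasion, and Rnf212 (3.08), which encodes a ligase of crossover designation. Of 16 cohesin and partner genes 1 had a bare site, Sgo1 (3.67), the protector of centromeric cohesion, and none a HORMAD1 site. None of 15 axis and synaptonemal complex genes and none of 24 germ cell and meiotic entry genes had a bare or a HORMAD1 site. Strong sites at Sycp2, a partner of SYCP3 (score 5.89), Rbm46 and Sohlh1 belonged to the third group, with SYCP3 peaks in knockouts at Sycp2 and Rbm46, and hotspots at Rbm46 and Sohlh1.

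Among imprinted genes, in which CTCF is known to act at several control regions, 3 of 39 had a bare site. They were Meg3 (chr12:109539891-109543407, score 3.42), a maternally expressed long RNA, Peg3 (chr7:6728855-6730854, 3.34), a paternally expressed zinc-finger gene, and Magel2 (chr7:62381946-62383110, 3.01). Cdkn1c, a growth-restraining cyclin kinase inhibitor, had a HORMAD1 site of 13087 bp with HORMAD1 peaks in Spo11KO, Mei4KO and Iho1KO. No Hox gene had a bare site, and Hoxa10 and Hoxa11 shared 1 HORMAD1 site.

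Of the gene families, zinc-finger genes with symbols starting with Zfp carried 19 bare sites among 391 genes (4.86%), close to the background of 4.46%, and 2 had a HORMAD1 site (0.512%). The highest-scoring of these bare sites were at Zfp90 (5.49), Zfp619 (5.11) and Zfp423 (4.91). Zfp809, known for silencing retroviral elements, had a bare site with a score of 4.24. None of 1104 olfactory receptor genes (Olfr), 354 vomeronasal receptor genes (Vmn) or 112 genes with symbols starting with Krt had a bare site, and each of these sets had 1 gene with a HORMAD1 site, which for Krt was Krtcap2, no keratin. Among 67 genes starting with Pcdh, 2 had a bare site, among them Pcdh10, and 2 had a HORMAD1 site. Among 73 starting with Def, 1 had a bare site, Def8, which is no defensin, and the defensin genes Defb14 and Defb36 had HORMAD1 sites.

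By median distance, bare sites were spaced a little more widely from other CTCF peaks than HORMAD1 sites as a whole. Their nearest CTCF peak of any score was a median of 15569 bp away (quartiles 7377 and 33838), against 13976 bp for HORMAD1 sites. For the nearest strong peak the medians were 64184 and 55204 bp, and 65537 bp for strong sites with wild-type HORMAD1. Another CTCF peak centre lay within 10 kb of 34.7% of bare and 37.1% of HORMAD1 sites, a difference of -2.38 points (-4.66 to -0.129). This call did not hold up: the difference was 0.601 points (-2.07 to 3.27) within width classes, 0.0842 points against wild-type HORMAD1 alone, and 1.68 points (0.0336 to 3.28) in the other direction at 5 kb. For strong neighbours within 50 kb the shares were 42.2% and 47.0%, a difference of -4.84 points (-7.18 to -2.49), with bare sites lower on 15 of 19 autosomes. Within width classes this difference was -1.34 points (-4.14 to 1.45) and was not called. The third group had a neighbour of any score within 10 kb in 31.1% and a strong one within 50 kb in 39.0%. For all autosomal CTCF peaks these shares were 35.7% and 42.9%, near those of bare sites. Among CTCF peaks under the threshold, not split by width, the differences were -6.50 points (-8.97 to -4.06) and -5.92 points (-8.42 to -3.44).

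The partners of bare and of HORMAD1 sites differed most where 2 strong sites lay up to 10 kb apart. In 400 pairs of consecutive strong sites up to 10 kb apart, the partner was bare for 67.8% of the bare and 44.5% of the HORMAD1 sites, while 58.6% of all sites in these pairs were bare. At 10 to 50 kb the shares were 63.8 and 56.3% beside 60.8% of all sites, at 50 to 200 kb 62.9 and 61.6% beside 62.6%, and beyond 200 kb 65.4 and 62.2% beside 64.4%. Beyond 10 kb the partner of a HORMAD1 site was more often bare than not. Whether 1 wide HORMAD1 peak covered both sites of a close pair was not tested. These shares are a description, since each site enters with its neighbours.

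The longest run of consecutive strong sites that were all bare held 15 sites at chr9:3402665-13890791. The next held 14 sites each, at chr1:40543954-46850604, chr15:25715272-28027149 and chr16:56063646-59404455, and the fifth held 13 at chr16:10520678-13735179. With bare sites at 62.7% of the strong sites, bare neighbours are the common case, and the runs are given as positions only. The fifth run holds Prm1, Prm2, Prm3 and Tnp2, spermatid genes for protamines and a transition protein, which were picked after the run's genes were seen. The density of bare sites differed modestly over chromosomes, from 58.3% of strong sites on chromosome 5 (54.0 to 62.5%) to 67.9% on chromosome 16 (62.4 to 72.9%). With the strong sites split by position along the chromosomes into 3 stretches, bare sites made up 65.6% (63.5 to 67.6%) of those in the first, 63.9% in the middle and 60.0% (58.3 to 61.7%) in the last.

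Few bare sites lay within 1 kb of a listed peak, and most lay many kilobases from any. The rule removes every overlapping site. Distances from other positions in the genome were not taken, so whether those of bare sites are unusual was not tested. The distance to the nearest listed protein peak or wild-type hotspot was a median of 27012 bp (quartiles 10497 and 58542, range 5 to 1245474 bp). It was up to 1 kb for 102 sites (2.03%), up to 5 kb for 621 (12.3%) and up to 20 kb for 2041 (40.6%). By protein, the median distance was 86958 bp to HORMAD1, 101570 bp to SYCP3, 150760 bp to MEI4, 172514 bp to IHO1 and 54554 bp to a DMC1 hotspot. The lists differ in their number of peaks, and the part of that number in these medians was not tested. The 4411 bare sites at least 5 kb from every listed peak and hotspot still exceeded HORMAD1 sites in gene bodies, by 15.1 points (12.7 to 17.4).

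**Figure D5:**
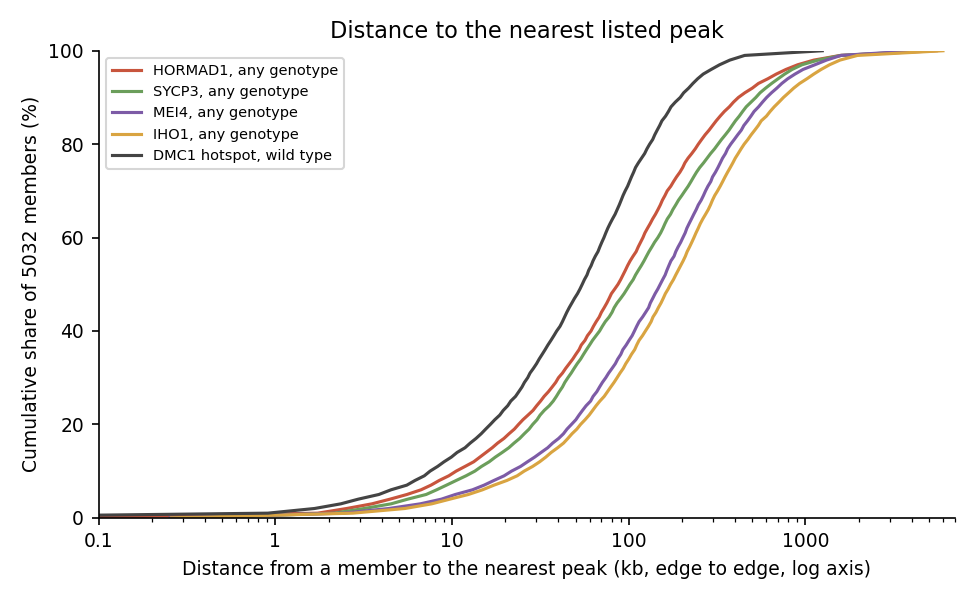
Cumulative share (%) of the 5032 bare sites against the edge-to-edge distance in kb (log axis) to the nearest peak of each protein in any genotype and to the nearest wild-type DMC1 hotspot. Hotspots were nearest (median 54554 bp) and IHO1 peaks farthest (172514 bp).

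Of the 10 bare sites with the highest scores, the first 3 were away from promoter windows. The highest score, 16.7, belonged to the narrowest bare peak, 404 bp at chr2:182012779-182013182, which lay 11893 bp from the nearest protein-coding gene end (Gm14496) and 93.8 kb from the nearest listed peak. The second, at chr6:128802589-128803996 (10.7), was near Klrb1b, a natural killer cell receptor gene, and lay only 1386 bp from a HORMAD1 peak of Mei4KO. The third, at chr7:120834621-120837410 (9.40), was 4116 bp from Gm5737.

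Of the next 7 by score, 6 were at promoter windows. The site at chr17:47610034-47612325 (9.01) covered the starts of Bysl, a ribosome assembly factor, and Med20, a Mediator subunit, and that at chr14:73507952-73511242 (8.58) the start of Med4, another Mediator subunit. The site at chr7:92873189-92876153 (8.39) covered the starts of Ddias and of Prcp, a carboxypeptidase, and was 191 kb from the nearest listed peak. These are the windows printed above for Gm20517, Med4 and Ddias. The sites at Cstdc2 (8.29), at Get1, which helps insert tail-anchored membrane proteins (8.22), and at Tmem14a (chr1:21217545-21219775, 7.78) were also at promoter windows, and that at chr8:18953370-18954903 (8.41) was 3031 bp from Xkr5.

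The most isolated bare sites lay in gene families and large gaps. The pair farthest from any listed peak was at chr14:43812247-43813143 (score 4.09, 1245 kb) and chr14:43924683-43925655 (6.32, 1133 kb), near Ear1 and Ear10, eosinophil-associated ribonuclease genes. The next, at chr5:58736217-58737684 (3.62), was 966 kb from a listed peak and 603714 bp from the nearest gene end, that of Pcdh7. A pair at Hao2, a hydroxy acid oxidase gene, at chr3:98915299-98916895 (3.27) and chr3:98894441-98896188 (3.12), was 671 and 666 kb away.

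For comparison, the highest HORMAD1 site scored 37.3 at chr14:124801578-124802163, was the narrowest of its group at 586 bp, and overlapped 7 protein lists. The second, at chr9:124256316-124257897 (31.4), overlapped 20 of the 21 lists. The third, at the promoter of Hjurp, the chaperone of the centromeric histone, scored 18.7 and overlapped 2. The top bare score lay below all 3.

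Few bare sites had a hotspot in the second DMC1 list. In Hormad1KO, whose list did not enter the rule, a DMC1 hotspot overlapped 4 of 5032 bare sites (0.0795%, 0.0309 to 0.204%) and 3 of 2524 HORMAD1 sites without a wild-type hotspot (0.119%, 0.0404 to 0.349%). The difference was -0.0394 points (-0.274 to 0.108) and was not called. Over all autosomal CTCF peaks the share was 1.09%, but that set includes peaks at wild-type hotspots, which the rule removes. With wild-type hotspots kept, 39 of 2640 HORMAD1 sites (1.48%) overlapped a Hormad1KO hotspot. Among HORMAD1 sites the count was thus lower with the hotspot filter than without it. The part of the filter in the bare count was not tested. The 4 sites were at chr1:90587499-90594801, chr2:127461476-127464322, chr8:24385517-24387144 and chr10:74847757-74849523 and had scores of up to 4.47.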

How the data were processed

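Wild-type CTCF peaks were compared by position with 21 protein peak lists (5 each of MEI4, IHO1 and HORMAD1, 6 of SYCP3) and 2 DMC1 lists, 1 deposited list per group. Bowtie2, MACS2 and mm10 are named, without versions or roles, per the submitters' processing notes. The authors subtracted each protein's own knockout, per the design text. Start and end are the authors' coordinates, printed counted from 1. The authors deposited a CTCF score per peak (decimal comma, -6.85 to 37.3, 192 below 0) and a DMC1 score per hotspot, neither of named unit, used only within their own list. Thresholds, depth and replicate pooling are not given in the sources used here.

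Sites overlapped where they shared at least 1 bp. Genes and promoter windows came from RefSeq tables of GRCm38.p6 (20665 autosomal protein-coding genes, 31396 autosomal windows). Gene position was taken at the peak centre, and gene ends were widened by 1 kb. Shares had Wilson and differences Newcombe 95% intervals, with no p-value. Python 3.11.15 and numpy 2.4.6 were used, and the overlap, distance and interval functions were tested on simulated data. Alternatives changed the overlap needed, the sites compared, the classes of score or width, the gene set and the distances. Named sites were the 10 highest-scoring bare sites, the 5 farthest from listed peaks, the 5 highest at a promoter window and the 3 highest HORMAD1 sites, none on chromosome 18. Named genes were those of set lists with a bare site at an end. Listed genes with another kind of strong site (such as Cdkn1c, Hoxa10, Sycp2) and genes named for their number of sites or their run were chosen after their values were seen. The sites and lists were chosen with earlier results of these data known.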

Additional observations from a re-analysis of the deposited data

How the results depend on the processing

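No paired analysis was possible because each group had 1 deposited list and no result comes from a test over replicates, and leaving out replicates was not possible for the same reason. Intervals cover counting error only, CTCF was listed in the wild type only, and the absence of a peak depends on unknown depth and thresholds, which limits what the word bare can mean. The cause of the changes below was not tested.

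Differences are in percentage points, bare minus HORMAD1 sites. For gene bodies all 11 alternatives were called in the same direction, from 12.96 to 20.8. They include settings added after seeing the data: HORMAD1 in 2 or more lists (17.08), all annotated genes (12.96) and sites over 1 kb from gene ends (16.96). For gene ends, calls appeared with a 1 kb window at the peak centre (2.51), wild-type HORMAD1 only (4.17), width classes (5.33), HORMAD1 in 2 or more lists (3.14, added after seeing the data) and gene starts (1.803, added likewise). The sign turned with all annotated genes (-5.17), with no margin (-0.192) and for bare sites at least 5 kb from listed peaks (-0.220). For gene deserts the call was lost with wild-type HORMAD1 only (-2.31) and over 100 kb (-0.453). For CTCF neighbours it was lost in the stronger 50% of sites (-1.41) and with HORMAD1 in 2 or more lists (-2.54), and the sign turned with wild-type HORMAD1 only (0.0842), in width classes (0.601) and within 5 kb (1.68). For strong neighbours it was lost with wild-type HORMAD1 only (-3.14) and in width classes (-1.34). The Hormad1KO DMC1 difference turned sign in the stronger 50% (0.0348) and with wild-type HORMAD1 only (0.0795). The promoter difference turned sign with a 1 kb window (0.877), in the stronger 50% (1.00), with wild-type HORMAD1 only (0.512), in score classes (0.258), in width classes (2.84) and with HORMAD1 in 2 or more lists (0.467).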
